A study of Caenorhabditis elegans with 6 samples.

Results

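The genes described here encode the enzymes that put methyl groups on histones or take them off, the enzymes that remove acetyl groups, and a few proteins that bind the methylated sites. They were taken by name. A gene belonged when a probe set carried its symbol alone and that symbol was set-, met-, mes-, hda-, jmjd- or sir-2. followed by a number, or was utx-1, spr-5, lsd-1, rbr-2, hpl-1, hpl-2, lin-61 or mrg-1. This rule gave 60 genes of the 17118 that had a probe set of their own. No measured value entered it, although it was set with earlier results of these data known. The 60 genes were covered by 88 of the 22548 probe sets tested, and each gene was read from the probe set with the highest mean over the arrays. The reference gene table holds 67 genes with such names, and the remaining 7 (jmjd-4, mes-6, set-9, set-26, set-28, set-29 and set-33) were not analysed here.

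Messenger RNA was measured on Affymetrix arrays in whole worms of the wild-type strain N2 of Caenorhabditis elegans, reared at 20 °C and brought to the same age at the third larval stage. About 2000 worms were held per dish in a salt solution, K-medium at 50% strength. The Au-NP group, 3 dishes, received gold particles 4 nm across with a citrate coat at 5.9 mg/L, which the labels call the LC10, for 12 h, was moved to particle-free medium for another 12 h, and gave its RNA at 24 h. The other 3 dishes are labelled control. Their records carry the same protocol text, exposure included, and do not say what they received in place of the particles. Nothing says that the dishes came from separate cultures, so p-values measure the spread between dishes, which may be technical. Values are log2 signals after RMA, a method that corrects background, equalises the arrays and joins the probes of a set. Precision is limited by the number of arrays, 3 per group.

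Histones are the proteins around which DNA is wound, and methyl groups on particular lysines of their tails mark genes as active or silent. On histone H3, methylated H3K4 and H3K36 (a histone, the letter for lysine and its position) are found on transcribed genes, and methylated H3K9 and H3K27 on silent ones. Most methyltransferases carry a SET domain, and demethylases fall into the LSD1 type and the Jumonji type. Deacetylases need either zinc (the hda genes) or NAD (the sirtuins). In C. elegans many of these proteins act in the germ line, where they keep its genes on and somatic genes off and pass chromatin states between generations.

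Au-NP replicate 3 stood apart from the other exposed arrays over the whole table. On the first principal component, which held 54.3% of the variance, it lay at 5.83, between the controls at -25.4 to -14.8 and the other Au-NP arrays at 28.2 and 31.4. Array medians differed little, from 7.03 to 7.09. Markers of germ line, oocytes, sperm, muscle, pharynx, intestine, hypodermis and neurons were looked up to check the labelled whole worms, and 69 of 77 had a mean above 7.06, the median of all values. Calls of the named genes that depended on single arrays are given below with those arrays left out. The direction of each difference is that of the array labels. For other gene families (the abu and pqn genes and several chaperones) these labels run opposite to the published account of the experiment as it is remembered here, which was not checked.

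Few of the genes differed between the groups. By limma with Benjamini-Hochberg adjustment over all probe sets, 6 of 60 were lower in the Au-NP arrays, 0 were higher and 54 did not pass an adjusted p of 0.05. Over all genes, each by its own highest probe set, 4.45% were lower and 7.09% were higher. At an unadjusted limma p under 0.05, 9 of the 60 were lower and 9 higher, where 1436 and 3082 of all 17118 genes were. The 6 that fell were spr-5, set-16, hda-10, jmjd-2, set-2 and mes-4, by 0.39 to 0.59 log2 units, or between 1.31-fold and 1.5-fold. The median difference over the 60 genes was 0.04 log2, the same to 2 decimals as the 0.04 over all 17118 genes. The quartiles over the 60 were -0.12 and 0.18.

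**Figure D1:**
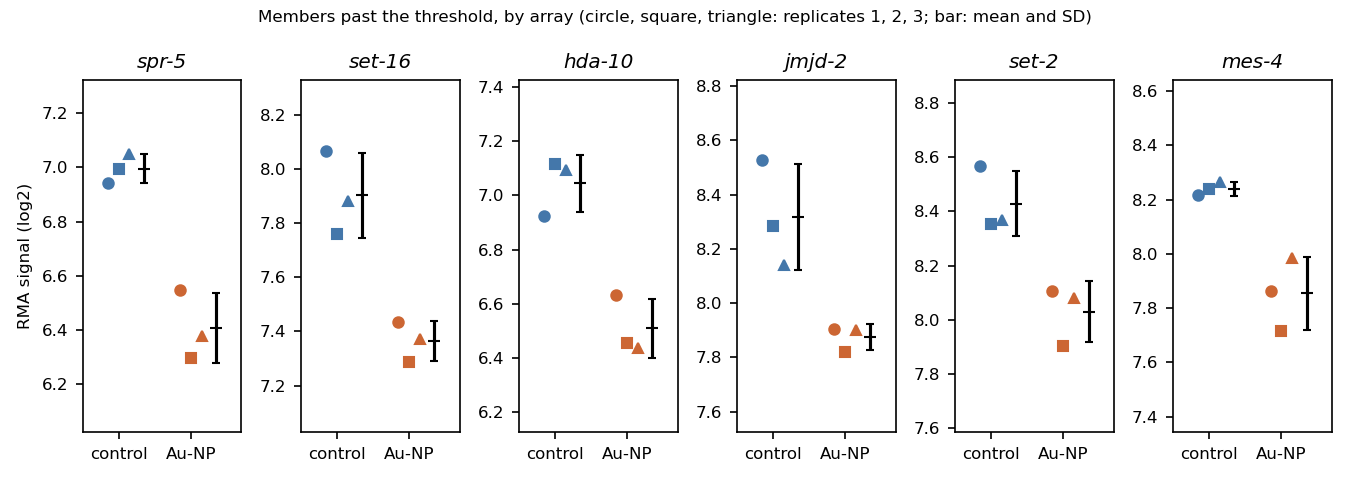
RMA signal (log2) of the 6 genes past the threshold in each array, control in blue and Au-NP in orange, with circle, square and triangle for replicates 1, 2 and 3 and a bar for the mean and SD of each group; every panel spans the same range. In all 6 panels the 3 Au-NP arrays lie below the 3 control arrays, and Au-NP replicate 3 lies with its own group.

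The 60 genes split in both directions when the arrays are simply ranked. In 9 genes all Au-NP arrays lay below all control arrays, against 9.5% of all genes, and in 11 they lay above, against 21.1% of all genes. The arrays of the groups overlapped in the remaining 40. Of the 54 genes that did not pass, 47 had a 95% interval for the difference within 0.5 log2 units of 0, and 54 had one within 1 log2 unit. A change of 2-fold or more thus lay outside the interval of each of these 54 genes.

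**Figure D2:**
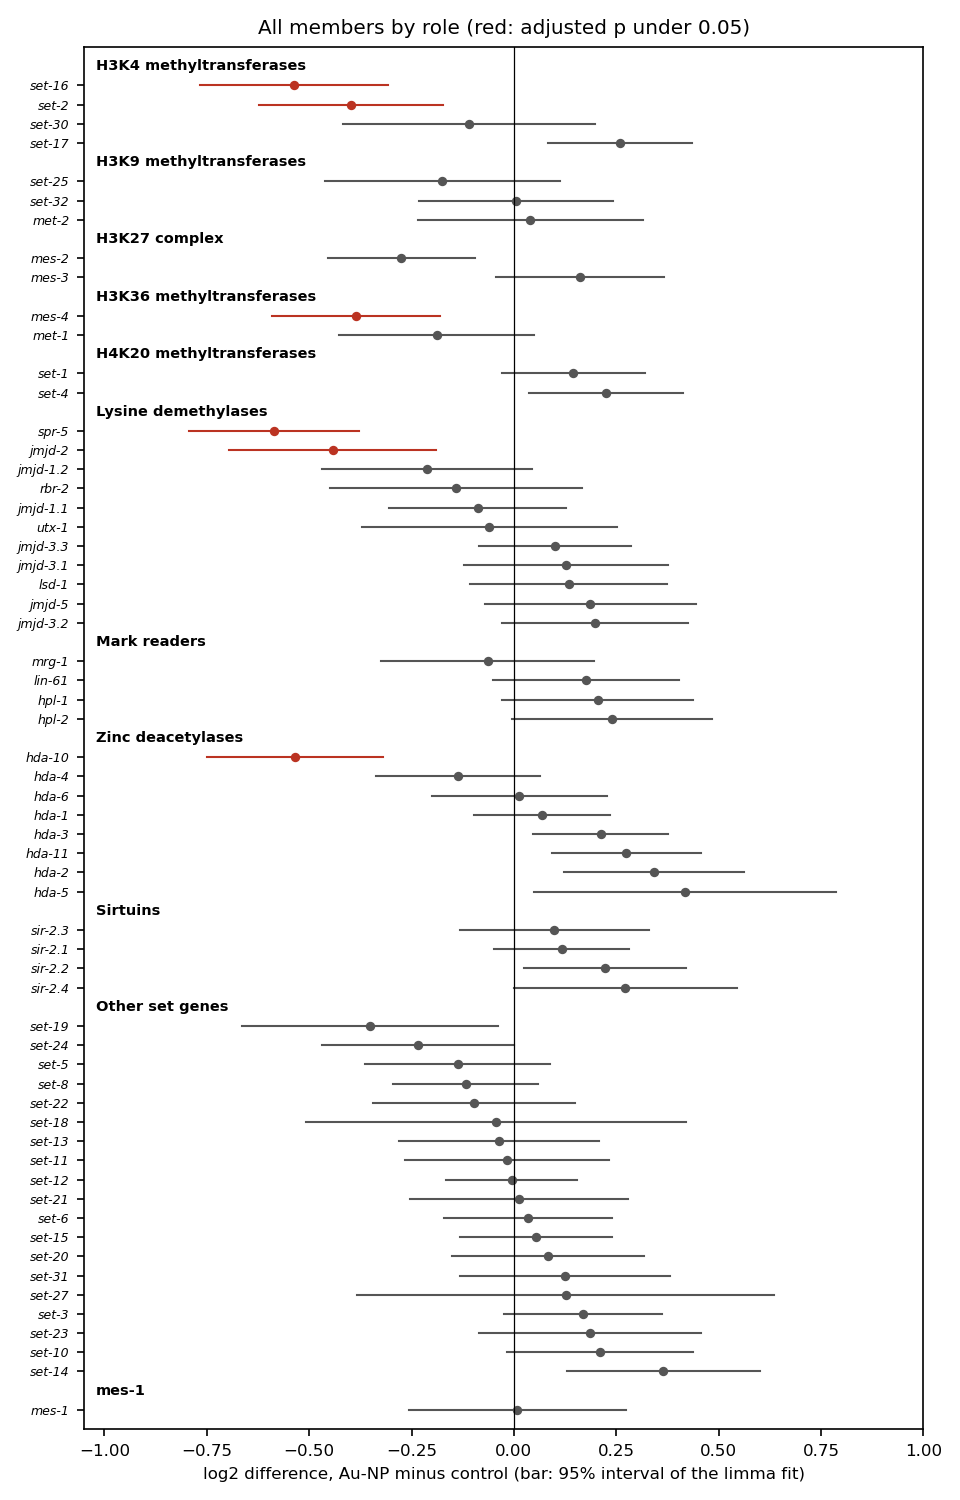
The log2 difference, Au-NP minus control, of each of the 60 genes (points) with the 95% interval of the limma fit (bars), arranged by role, with genes past the threshold in red. The 6 red genes lie at -0.59 to -0.39, spread over 4 of the roles, and no gene on the positive side is red.

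H3K4 methylation had members that fell among both its writers and its erasers. The gene set-2 encodes the worm's SET1 enzyme, which makes most trimethylated H3K4. Its signal was 8.57, 8.35 and 8.37 in control replicates 1 to 3 and 8.11, 7.90 and 8.08 in Au-NP replicates 1 to 3. The highest exposed array thus lay 0.24 below the lowest control. The difference was -0.40 ± 0.10 (SE, n = 3 per group, limma adjusted p = 0.0388). The second set-2 probe set had overlapping groups and -0.19 ± 0.13 (limma adjusted p = 0.436).

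The gene set-16 encodes the relative of the mammalian MLL3 and MLL4 enzymes. Its signal was 8.07, 7.76 and 7.88 in the controls and 7.43, 7.29 and 7.37 in the Au-NP arrays, with the exposed arrays close together and all below the controls. The difference was -0.54 ± 0.10 (limma adjusted p = 0.0170). The other genes placed with these enzymes did not pass. The germ-line H3K4 methyltransferase gene set-17 had 9.15, 9.12 and 9.11 in the controls and 9.31, 9.47 and 9.37 in the Au-NP arrays, so its arrays lay on the opposite side, at 0.26 ± 0.08 (limma adjusted p = 0.0682). It was named after its values were seen.

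Among the erasers of H3K4 methylation, spr-5, an LSD1-type demethylase first found through its effect on presenilin mutants and needed for germ-line health over generations, showed the lowest p of the 60 genes. Its signal was 6.94, 6.99 and 7.05 in the controls and 6.55, 6.30 and 6.38 in the Au-NP arrays. The groups were 0.39 apart at their nearest. The difference was -0.59 ± 0.09, a fold of 1.5 (limma adjusted p = 0.0102). The second LSD1-type gene, lsd-1, had 0.13 ± 0.10 (limma adjusted p = 0.495), with a 95% interval from -0.11 to 0.38, where that of spr-5 ran from -0.79 to -0.38. The difference between these genes was not tested. The Jumonji-type H3K4 demethylase gene rbr-2 had -0.14 ± 0.13 (limma adjusted p = 0.584). In rbr-2 Au-NP replicates 1 and 2 lay at 10.21 and 10.15, under the controls at 10.44 to 10.49, and Au-NP replicate 3 lay above them at 10.64.

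H3K36 methylation was represented by mes-4 and met-1. The enzyme of mes-4 keeps H3K36 methylation on germ-line genes and is supplied by the mother. Its chosen probe set read 8.22, 8.24 and 8.27 in the controls and 7.86, 7.72 and 7.99 in the Au-NP arrays. The controls were within 0.05 of each other, and every exposed array lay below them. The difference was -0.39 ± 0.09 (limma adjusted p = 0.0335). The second mes-4 probe set had overlapping groups and -0.13 ± 0.11 (limma adjusted p = 0.534). The other H3K36 methyltransferase gene, met-1, had -0.19 ± 0.10 (limma adjusted p = 0.299).

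The demethylase gene jmjd-2 encodes the relative of the mammalian KDM4 enzymes, which act on methylated H3K9 and H3K36. Its signal was 8.53, 8.28 and 8.14 in the controls and 7.90, 7.82 and 7.90 in the Au-NP arrays. The controls spread more widely than the exposed arrays, and the groups did not overlap. The difference was -0.44 ± 0.11 (limma adjusted p = 0.0406). Its second probe set also passed, at -0.55 ± 0.12 (limma adjusted p = 0.0297), so jmjd-2 was the one gene of the 60 with more than 1 probe set past the threshold.

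The other demethylases did not pass. The H3K27 demethylase genes utx-1 and jmjd-3.1 had -0.06 ± 0.13 and 0.13 ± 0.11 (limma adjusted p = 0.851 and 0.539), and jmjd-1.2, which acts on H3K9 and H3K27 and takes part in the mitochondrial stress response, had -0.21 ± 0.11 (limma adjusted p = 0.279). Of the 11 demethylase genes 2 were lower and 0 higher, where 4.45% and 7.09% of all genes were. The groups overlapped in 9 of the 11, and in 11886 of all 17118 genes. The median of the 11 was -0.06.

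None of the H3K9 or H3K27 methyltransferase genes passed. For H3K9, met-2, the SETDB1 relative, had 0.04 ± 0.12, set-25, which trimethylates H3K9, had -0.17 ± 0.12, and set-32 had 0.01 ± 0.10 (limma adjusted p = 0.889, 0.442 and 0.985), with overlapping groups in each. For H3K27, mes-2, the catalytic subunit of the Polycomb repressive complex, read 7.55, 7.67 and 7.68 in the controls and 7.29, 7.40 and 7.38 in the Au-NP arrays. Its exposed arrays lay below all controls by at least 0.15, and its difference of -0.28 ± 0.08 missed the threshold (limma adjusted p = 0.0602). The partner subunit gene mes-3 had 0.16 ± 0.09 (limma adjusted p = 0.304). The symbol rule also takes in mes-1, whose product is a receptor-like membrane protein of germ-line precursor cells and not a histone enzyme, and it had 0.01 ± 0.11 (limma adjusted p = 0.977).

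Methylation of H4K20, a lysine of histone H4, is made by the products of set-1 and set-4. Both genes had all Au-NP arrays above all controls. In set-1 the difference was 0.15 ± 0.07 and in set-4 it was 0.22 ± 0.08 on the chosen probe sets (limma adjusted p = 0.273 and 0.120). The second set-4 probe set read 8.11, 8.14 and 8.22 in the controls and 8.47, 8.55 and 8.58 in the Au-NP arrays. It passed as higher, at 0.38 ± 0.07 (limma adjusted p = 0.0205). Counted by any of their probe sets, 7 of the 60 genes were lower and 1 was higher, against 4.94% and 7.49% of all genes. The 2 genes added by that count were set-4 and, on the lower side, set-19, whose second probe set had -0.42 ± 0.09 (limma adjusted p = 0.0262) and whose chosen one had -0.35 ± 0.13 (limma adjusted p = 0.143).

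Proteins that bind methylated histones did not pass. The HP1 genes hpl-1 and hpl-2, which bind methylated H3K9, had 0.20 ± 0.10 and 0.24 ± 0.10 (limma adjusted p = 0.25 and 0.196). All 5 hpl-2 probe sets and both of hpl-1 were positive, from 0.19 to 0.34 in hpl-2. The 5 of hpl-2 all carry a suffix for probes that may bind related transcripts, so they may not be separate readings. The second hpl-1 probe set had all Au-NP arrays above the controls and 0.31 ± 0.08 (limma adjusted p = 0.0503). The H3K9 reader gene lin-61 had 0.18 ± 0.10 and mrg-1, which encodes a chromodomain protein needed by germ cells, had -0.06 ± 0.11 (limma adjusted p = 0.316 and 0.800).

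Among the 8 zinc deacetylase genes, 1 fell and 7 did not pass, where 4.45% of all genes were lower and 7.09% higher. The gene hda-10, a member of the zinc deacetylase family, read 6.92, 7.11 and 7.09 in the controls and 6.63, 6.46 and 6.44 in the Au-NP arrays. The nearest arrays of the groups were 0.29 apart. The difference was -0.54 ± 0.09, a fold of 1.45 (limma adjusted p = 0.0142), and the second hda-10 probe set had -0.49 ± 0.13 (limma adjusted p = 0.0552).

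The class I deacetylases, which are the catalytic subunits of repressor complexes, were on the other side of 0. The gene hda-2 read 8.19, 8.48 and 8.42 in the controls and 8.71, 8.67 and 8.75 in the Au-NP arrays, above all controls, with 0.34 ± 0.09 (limma adjusted p = 0.0568). In hda-3 the Au-NP arrays, 9.69, 9.64 and 9.68, lay above the controls, 9.42, 9.52 and 9.43, with 0.21 ± 0.07 (limma adjusted p = 0.0979), while its second probe set had -0.06 ± 0.07. The best studied of the class, hda-1, a subunit of the NuRD complex, had 0.07 ± 0.07 with a 95% interval from -0.10 to 0.24 (limma adjusted p = 0.630). The class II genes hda-4 and hda-6 had -0.14 ± 0.09 and 0.01 ± 0.09 (limma adjusted p = 0.384 and 0.954).

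The genes hda-5 and hda-11, named after their values were seen, had 0.42 ± 0.16 and 0.27 ± 0.08 (limma adjusted p = 0.139 and 0.0634). All 4 sirtuin genes had positive differences and none passed. They were 0.12 ± 0.07 in sir-2.1, the SIRT1 relative, 0.22 ± 0.08 and 0.10 ± 0.10 in sir-2.2 and sir-2.3, which encode mitochondrial sirtuins and lie next to each other on the chromosome, and 0.27 ± 0.12 in sir-2.4. Their limma adjusted p ranged from 0.144 to 0.614. Over all genes, 10349 of 17118 had a positive difference, and 4.45% passed as lower and 7.09% as higher.

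The 19 set genes without a role above had 0 genes past the threshold, where 4.45% of all genes were lower and 7.09% higher. Their differences ran from -0.35 to 0.36 with a median of 0.01. Of the 19, set-14, set-19 and set-24 were named after their values were seen, as was mes-1. In set-24 all Au-NP arrays lay below the controls, by as little as 0.0057, with -0.23 (limma adjusted p = 0.188). The highest of the 19 was set-14. It read 7.57, 7.40 and 7.45 in the controls and 7.68, 7.85 and 7.99 in the Au-NP arrays, above all controls, with 0.36 ± 0.10 (limma adjusted p = 0.0584). Over all 60 genes 6 had a limma adjusted p from 0.05 to 0.1, 5 of them positive (set-14, set-17, hda-2, hda-3 and hda-11) and 1 negative (mes-2). All genes leaned the same way. From a threshold of 0.05 to 0.1 the share higher went from 7.09% to 12.4%, and the share lower from 4.45% to 6.26%.

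The calls rested on single arrays to different degrees, although all 6 genes that fell also lay below the controls in Au-NP replicate 3. Against the control mean that array had -0.25 in mes-4, -0.35 in set-2, -0.42 in jmjd-2, -0.53 in set-16, -0.61 in hda-10 and -0.62 in spr-5. Au-NP replicate 1 had -0.47 to -0.32 and Au-NP replicate 2 had -0.70 to -0.50. Without Au-NP replicate 3 the same 6 genes were lower, against 7.41% of all genes, and 2 were higher, sir-2.4 at 0.39 and hda-5 at 0.57 (limma adjusted p = 0.0216 and 0.0168), against 10.3% of all genes. Without Au-NP replicate 2 none of the 60 passed, where 1.39% of all genes were lower and 0.759% higher, and the differences of the 6 genes were then -0.32 to -0.53.

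For spr-5 that was the one array whose removal ended the call, at a limma adjusted p of 0.0508. For set-16 it was lost without control replicate 1 (0.0515), control replicate 3 (0.0616) or Au-NP replicate 2 (0.0788), and for hda-10 without control replicate 2 (0.0576), control replicate 3 (0.0594) or Au-NP replicate 2 (0.0692). For set-2, mes-4 and jmjd-2 the call held without Au-NP replicate 3 and was lost without any other array, with limma adjusted p from 0.0652 to 0.140, from 0.0792 to 0.117 and from 0.0525 to 0.145. Without Au-NP replicate 1, set-14 was higher at 0.44 (limma adjusted p = 0.0452).

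The genes that fell were long on the chromosome. Gene span, from start to end with introns, had a median of 8201.5 bp in the 6 genes, 3354.5 bp in the 54 that did not pass and 2185 bp over all genes. Of the 20 members longer than 5000 bp, 5 were lower and their median difference was -0.14, where 13.5% of all genes of that length were lower with a median of -0.04. Of the 32 members between 2000 and 5000 bp 1 was lower (mes-4), where 4.01% of all genes were. None of the 8 members up to 2000 bp was lower, and their median was 0.21, where the median of all such genes was 0.06. Spearman's rho between the difference and span was -0.57 across the 60 genes and -0.23 across all genes with a known span, as a description, since genes share the arrays. When the trend of signal on span was taken out of each array, spr-5 had -0.49, set-16 -0.44, hda-10 -0.52 and mes-4 passed as well, while set-2 had -0.35 and jmjd-2 -0.38 and missed the threshold (limma adjusted p = 0.0564 and 0.0755). The part of gene length in these results was not tested further.

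**Figure D3:**
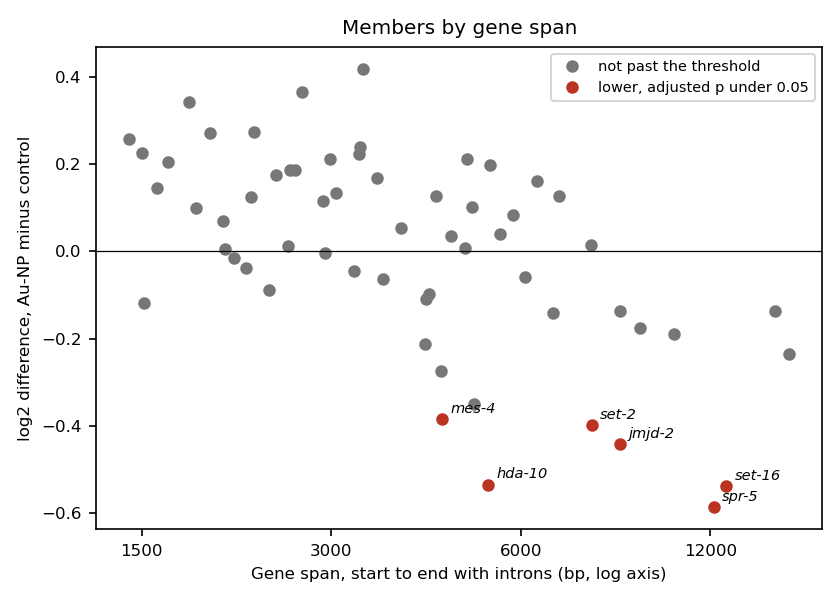
The log2 difference, Au-NP minus control, of each of the 60 genes against the length of the gene with introns in base pairs on a log axis, with genes past the threshold in red. The red genes lie at 4496 bp (mes-4) and longer, and genes under 2000 bp lie above 0 except set-8 at -0.12.

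Probe sets of the same gene were compared where there were several. Of 22 such genes, 18 had differences of 1 sign in all their probe sets and 4 did not. The chosen probe sets of spr-5, set-16 and mes-4 carry a suffix that marks transcripts shared or probes that may bind related genes, and spr-5 and set-16 had no other probe set.

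Other genes of the same machinery were taken from 7 lists of complexes, readers and enzymes, with 80 genes measured. Of these, 7 were lower, 1 was higher and 72 did not pass, and their median was -0.06. The counts over these lists stand against the 4.45% of all genes that fell, the 7.09% that rose and the all-gene median of 0.04. By list, 1 of 8 genes of the H3K4 methyltransferase complexes was lower, 2 of 13 in deacetylase and CoREST complexes, 1 of 14 in the synMuv and DREAM list, and 3 of 13 acetyltransferase genes, of which 1 more was higher. None of the 11 chromodomain and bromodomain readers, 13 other methyl enzymes and 8 methyl-donor genes passed.

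Partners of the enzymes above were among those that fell. The gene pis-1, the relative of mammalian PTIP in the complex of the set-16 enzyme, read 7.69, 7.71 and 7.69 in the controls and 7.34, 7.08 and 7.22 in the Au-NP arrays, well below them, at -0.48 ± 0.09 (limma adjusted p = 0.0160). Its call was lost without any 1 control (limma adjusted p = 0.0565 to 0.0609) and without Au-NP replicate 2 (0.0668). The core H3K4 subunit genes ash-2, wdr-5.1 and dpy-30 had 0.00, 0.11 and 0.11, did not pass and were picked after their values were seen. In the same list cfp-1 had all Au-NP arrays below the controls, at -0.29 ± 0.08 (limma adjusted p = 0.0669). In wdr-5.2 all Au-NP arrays lay above the controls, at 0.32 ± 0.12 (limma adjusted p = 0.145). Of the NuRD complex, let-418, a Mi-2 remodeller, had -0.50 ± 0.12 and lin-40, an MTA subunit, had -0.66 ± 0.11 (limma adjusted p = 0.0428 and 0.0120). The other 11 genes in the list of deacetylase and CoREST complexes did not pass, with differences from -0.30 in chd-3 to 0.18 in lin-53. The call of let-418 held without Au-NP replicate 3 and was lost without any other array (limma adjusted p = 0.0754 to 0.134), and that of lin-40 was lost without Au-NP replicate 2 (0.0575). The synMuv gene lin-36, a repressor of vulval fates, had -0.76 ± 0.11 (limma adjusted p = 0.00883) and kept its call without each array in turn. Its probe set is 1 of 3 and carries the suffix for shared transcripts or probes, and with the 3 averaged the difference was -0.45 (limma adjusted p = 0.0124).

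Histone acetyltransferases, which oppose the deacetylases, had members in both directions. The MYST-type gene mys-2 had -0.55 ± 0.09, the p300 relative cbp-1 had -0.30 ± 0.08 and ing-3, an acetyltransferase complex subunit, had -0.32 ± 0.08 (limma adjusted p = 0.0119, 0.0446 and 0.0425). The cbp-1 paralog cbp-3 was higher, at 0.40 ± 0.07 (limma adjusted p = 0.0155), with 10.40, 10.36 and 10.39 in the controls and 10.78, 10.72 and 10.85 in the Au-NP arrays. The probe set of cbp-3 carries the suffix for shared transcripts or probes, so signal from related copies cannot be left out. Those of pis-1, lin-40, mys-2 and ing-3 carry the same suffix, and that of lin-40 is 1 of 2. The call of cbp-1 was lost without any 1 array (limma adjusted p = 0.0665 to 0.152) and that of ing-3 without any array but Au-NP replicate 3 (0.0941 to 0.156). That of mys-2 was lost without Au-NP replicate 2 (0.0592) or control replicate 3 (0.0510), and that of cbp-3 without any 1 control (0.0518 to 0.0614) or Au-NP replicate 2 (0.0580).

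**Figure D4:**
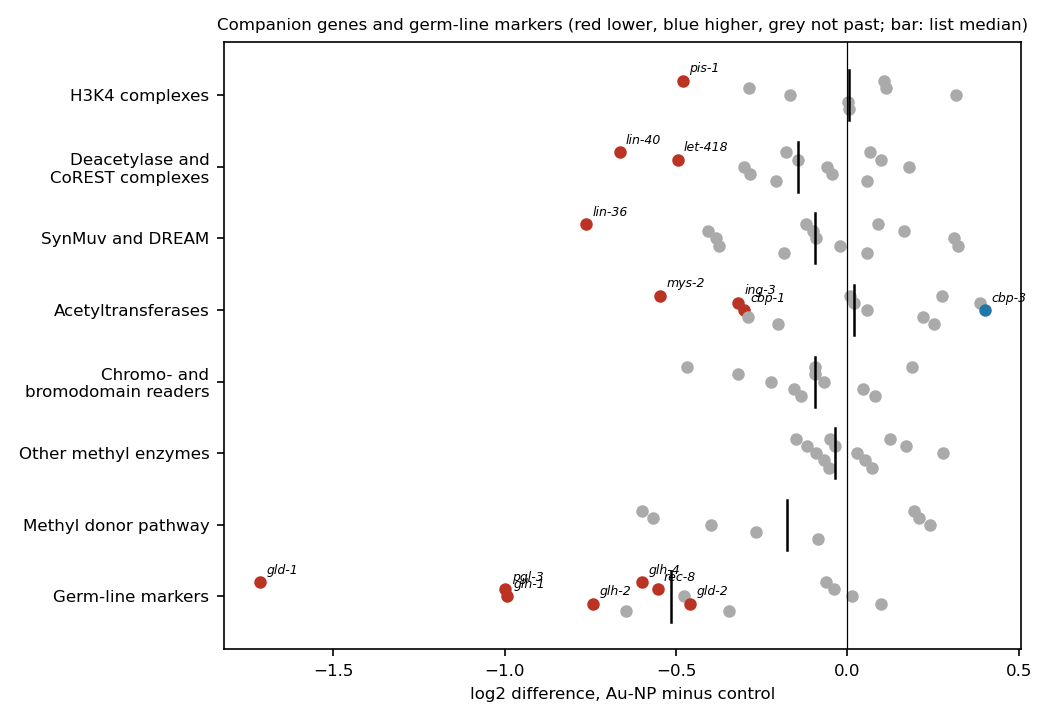
The log2 difference, Au-NP minus control, of each gene in the 7 lists of related chromatin genes and of the germ-line markers (points, red lower, blue higher, grey not past the threshold), with a bar at each list's median. The medians of the 7 lists lie from -0.18 to 0.02 and that of the germ-line markers at -0.52.

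Germ-line markers moved in the direction of the genes that fell. Of 14 markers 7 fell and none rose, and their median was -0.52, where 4.45% of all genes were lower and 7.09% higher and the median was 0.04. Among those that fell were the RNA helicase gene glh-1 of the germ granules at -0.99 ± 0.13 and the translational repressor gene gld-1 at -1.71 ± 0.27 (limma adjusted p = 0.00774 and 0.0113). The summed signal of the 14 markers on the linear scale was 7903 to 8950 in the controls and 5002 to 6760 in the Au-NP arrays. These sums did not overlap between the groups, and none of these markers can read 0 on this scale. Marker by marker, all Au-NP arrays lay below all controls in 9 of the 14, against 9.5% of all genes. In the other 5 the groups overlapped, with differences from -0.35 in htp-3 to 0.10 in fbf-1. The call of gld-1 did not survive the removal of Au-NP replicate 2 (limma adjusted p = 0.0503) or of control replicate 3 (0.0525). Of the other markers, 3 of 8 in muscle, 4 of 8 in pharynx, 2 of 10 in intestine, 1 of 7 in hypodermis, 1 of 10 in oocytes and 0 of 10 in sperm were lower and none of these was higher. Among 10 neuron markers 1 was lower and 1 higher, and their median was 0.11. Muscle markers summed to 50781 to 53842 in the controls and 39599 to 45334 in the Au-NP arrays. Pharynx markers summed to 7398 to 8088 in the controls and 5318 to 5949 in the Au-NP arrays. Both were without overlap, as in the germ line, and the sums of the remaining marker lists overlapped. Such sums weigh the strongest signals most, and members of a list did not all move together. In pharynx all Au-NP arrays lay below all controls in 4 of 8 markers, above in 1 (tnc-2 at 0.23), and overlapped in 3. In muscle they lay below in 5 of 8, above in 1 (unc-27 at 0.23), and overlapped in 2. Over all genes 9.5% lay below and 21.1% above. In whole worms fewer cells of a type and less RNA per cell cannot be told apart, and the part of either in the falls of mes-4, spr-5 and the other genes was not tested.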

How the data were processed

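Values were the deposited log2 signals, 1 per probe set and array, which the authors made with RMA; this method and Partek 6.4, whose role is not stated, are named per the submitters' processing notes. The scale was read from the values. RMA gives all arrays 1 distribution, which hides a shift of all transcripts, and it compresses small signals. No scanner file or detection call was used, and the genome build is not given in the sources used here. Affymetrix control probe sets (77 of 22625) were left out.

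Names came from the annotation of the platform, updated by gene identifier through the reference gene table (assembly WBcel235). It gave 20766 probe sets 1 symbol, 887 several and 895 none, and only the first were named. Gene span came from the same table. No sequence is shown.

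Differences were fitted with limma 3.58.1 under R 4.3.3 (group alone, two-sided, 4 residual and 3.39 prior degrees of freedom, Benjamini-Hochberg over 22548 probe sets). Errors are moderated standard errors, n = 3 arrays per group. Named were all members past the threshold and a list of 32 members with well-known roles. Of that list, mes-6 had no probe set of its own. Of the companion lists, genes with the smallest p were named, besides the ends of ranges and some picked after their values were seen. Members and lists were chosen with earlier results of these data known. Between 4 and 15 values were identical in any pair of arrays, so each counted as its own sample. Alternatives were single arrays left out, the replicate number as a block, other scalings, filters, weights, variances, thresholds, probe-set choices and the span trend.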

Additional observations from a re-analysis of the deposited data

How the results depend on the processing

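The count of lower members, 6, was 0 to 6 with single arrays left out, and 0 at an adjusted p of 0.01 (1.31% of all genes lower). The count of higher members, 0, was 0 to 2 with single arrays left out, 1 after a second quantile normalization (5.79% of all genes higher) or with probe sets of a gene averaged (7.27%), 2 with array medians centred (7.69%) or above the median level (15.8%, 40 members left), 4 with array weights (11.8%) and 5 at an adjusted p of 0.1 (12.4%). With single arrays left out, 1.39% to 7.41% of all genes were lower and 0.759% to 10.3% higher. The median over the members was 0.03 to 0.08 with single arrays left out and moved by less than the spread between arrays in every alternative run. Of the 80 companion genes, 7 were lower and 1 higher. With single arrays left out these were 1 to 13 and 0 to 3. Lower companion genes were 15 with array weights, 2 without probe sets of suffix s or x (50 genes left), 1 at an adjusted p of 0.01 and 13 at 0.1. Higher ones were 2 with array medians centred, 3 above the median level, 5 with array weights, 0 at 0.01, 5 at 0.1 and 2 with probe sets of a gene averaged.

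Replicate numbers did not pair the arrays, since deviations of same-numbered arrays correlated at -0.33, 0.43 and 0.22 and 2 of 6 arrays correlated best with their own number. With the replicate number as a block 4 members were lower, and mes-4 and jmjd-2 missed the threshold (limma adjusted p = 0.0532 and 0.0546). With probe sets of a gene averaged mes-4 had -0.26 and set-2 -0.29 (limma adjusted p = 0.0782 and 0.114). Of the 33 named members that did not pass, 23 passed in no alternative run. Sign changes came in 7 of them, all near 0 and none past the threshold. Over the single arrays left out, hda-6 ran from -0.037 to 0.082, mes-1 from -0.080 to 0.086, met-2 from -0.057 to 0.12, mrg-1 from -0.17 to 0.036, set-32 from -0.077 to 0.051 and utx-1 from -0.18 to 0.046. The span correction gave -0.00093 in hda-1 and -0.065 in set-32, a second quantile normalization -0.020 in hda-6, array weights -0.019 in met-2 and -0.012 in set-32, and probe sets of a gene averaged 0.0026 in utx-1. The cause of these changes was not tested.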
